A study of Mus musculus with 7 samples.

Results

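Chrdl1 Ccbe1 Fign glutamatergic neurons were examined in single-nucleus RNA sequencing (snRNA-seq) of the mouse posterolateral cortical amygdala, an olfactory area. They were chosen by their transcripts. A nucleus had to show at least 1000 genes and at most 30000 unique molecular identifiers (UMIs, counts of single captured transcripts), at least 2 UMIs of Slc17a7 and Slc17a6 together, and at most 1 UMI of Gad1 and Gad2 together. It also had to hold at least 5 UMIs of Chrdl1, Ccbe1 and Fign together, from at least 2 of these genes, and at most 2 UMIs of Smoc1 and Meis1 together. These conditions kept 738 nuclei, called gated nuclei here, of 16248 glutamatergic nuclei (4.54%) and of 51115 nuclei in all. The remaining 15510 glutamatergic nuclei are called the other nuclei.

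Nuclei came from the anterior (aplCoA) and the posterior (pplCoA) domain, and the question was which cell types and genes set the domains apart. All mice were wild-type males of the C57BL6J strain, 8 weeks old, without a transgene or treatment, and housed alone with reduced sensory input for the last day. Each domain gave 3 replicates, each a pool of tissue microdissected from several mice, and nuclei were sorted on the DNA dye DRAQ7 before capture. aplCoA replicate 1 was run as 2 libraries, summed here as 1 replicate, so 7 libraries gave 6 replicates. The labels call them biological replicates, and the p-values below measure the spread between these pools. Where domain changes are compared between gated and other nuclei, each pool is a block. Those p-values measure how the gap between gated and other nuclei spreads between pools.

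Chrdl1 encodes a secreted antagonist of bone morphogenetic proteins (BMPs), and its locus lies on the minus strand of chromosome X, at chrX:143285674-143394262 in mm10. Ccbe1 encodes a secreted protein that helps mature the lymphatic growth factor VEGF-C. Fign encodes fidgetin, an ATPase that severs microtubules (minus strand, chr2:63971507-64098038). Dach2, a transcription cofactor of the dachshund family (plus strand, chrX:113297510-113836386), is a further marker that the rule did not use. Glutamatergic neurons load their transmitter with the vesicular transporters VGluT1 (Slc17a7), typical of cortex, and VGluT2 (Slc17a6), typical of subcortical structures, and amygdalar cortex holds neurons of either kind.

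Library totals ranged from 50812605 to 129624583 UMIs over all barcodes. The gated nuclei were deeper than the other nuclei, with a median of 17928.5 against 13359.5 UMIs and of 4606 against 4003 genes. Between domains their depth differed by less than the spread between replicates, with replicate medians of 18318 ± 1014 UMIs in aplCoA and 18135 ± 1903 in pplCoA (SD, n = 3 each; two-sided exact permutation test, p = 0.9). Pairs of libraries shared at most 36 nuclear barcodes, up to 0.445% of the smaller library, and no gated nucleus had its barcode among the gated nuclei of another library. Scrublet, a doublet caller run on each library, called 8.40% of gated and 11.96% of other nuclei doublets, which were kept, and 25.5% of the gated nuclei of pplCoA replicate 1. Intervals on shares are exact binomial 95% intervals and cover counting error only.

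Each gated nucleus carried few transcripts of each gene of the gate. The summed UMIs of Chrdl1, Ccbe1 and Fign had a median of 7 in each aplCoA replicate and of 6 in each pplCoA replicate, and the highest nucleus held 37. Fign was detected in 94.4% of gated nuclei, Ccbe1 in 87.8% and Chrdl1 in 49.3%, against 19.2%, 12.6% and 3.76% of the other nuclei. The commonest pair was Ccbe1 with Fign (374 nuclei, 50.7%), and 233 nuclei (31.6%) held all 3 genes. All of these values follow from the rule and are given as a description.

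Levels are given as CPM, the UMIs of a gene scaled to a fixed library total, from the UMI sum of a replicate. Chrdl1 stood at 55.6, 65.0 and 64.0 CPM in aplCoA replicates 1, 2 and 3 and at 58.1, 58.4 and 34.3 CPM in pplCoA. Ccbe1 stood at 202, 156 and 148 CPM in aplCoA and at 103, 142 and 146 CPM in pplCoA. Fign stood at 210, 216 and 209 CPM in aplCoA and at 170, 126 and 199 CPM in pplCoA. In the other nuclei no replicate exceeded 5.70 CPM of Chrdl1, 16.9 CPM of Ccbe1 or 65.7 CPM of Fign, so the classes did not overlap. The mix of the 3 genes is given as a description, since the rule used them. Of their summed UMIs, Fign gave 48.0 ± 2.73% in aplCoA and 47.5 ± 7.69% in pplCoA, Ccbe1 38.0 ± 4.54% and 37.7 ± 6.26%, and Chrdl1 14.0 ± 1.82% and 14.8 ± 5.02% (SD, n = 3 each).

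Co-detection was higher in every aplCoA replicate than in any pplCoA replicate. All 3 genes were detected in 32.2, 39.0 and 35.6% of the gated nuclei of the aplCoA replicates and in 14.9, 6.25 and 11.1% of those of pplCoA. The replicates did not overlap, at 35.6 ± 3.38% against 10.8 ± 4.33% (SD, n = 3 each), and no test was made, since the gate selects on these genes.

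Dach2, which the rule did not use, was named as a marker with earlier results of these data known. Dach2 is thus described here and does not check the label independently. It stood at 77.4, 78.8 and 52.3 CPM in the gated nuclei of aplCoA and at 23.9, 3.16 and 43.6 CPM in those of pplCoA. In the other nuclei it stood at 17.4, 23.2 and 7.52 CPM in aplCoA and at 5.81, 4.57 and 4.89 CPM in pplCoA. Gated nuclei were thus higher in 5 of 6 replicates, with a median ratio of 3.95-fold, and lower in pplCoA replicate 2, whose value was that of 2 UMIs in 32 nuclei. Dach2 was detected in 40.7% of gated nuclei, 6.67% of other nuclei and 7.98% of GABAergic nuclei, which had a median of 8468 UMIs. Dach2 was not restricted to gated nuclei, since oligodendrocytes held 44.4 CPM and, of the glutamatergic clusters described below, cluster 21 (42 nuclei, none gated) held 387 CPM and cluster 12 (760 nuclei, 26 gated) 44.2 CPM.

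VGluT1 was the transporter of nearly all gated nuclei. Slc17a7 stood at 273, 256 and 266 CPM in aplCoA and at 277, 251 and 262 CPM in pplCoA (265 ± 8.43 against 263 ± 13.04 CPM, SD). Slc17a6 was scarce, at 8.23, 8.66 and 8.14 CPM in aplCoA and at 1.04, 0 and 0 CPM in pplCoA, where a single UMI was found. The other nuclei held 75.9, 62.8 and 65.0 CPM of Slc17a6 in aplCoA and 20.4, 10.1 and 9.26 CPM in pplCoA. Slc17a7 without Slc17a6 was found in 89.8 ± 2.13% of gated nuclei in aplCoA and 99.3 ± 1.23% in pplCoA, and the replicates did not overlap (SD, n = 3 each). The gate used both transporters, so their values are a description.

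**Figure D1:**
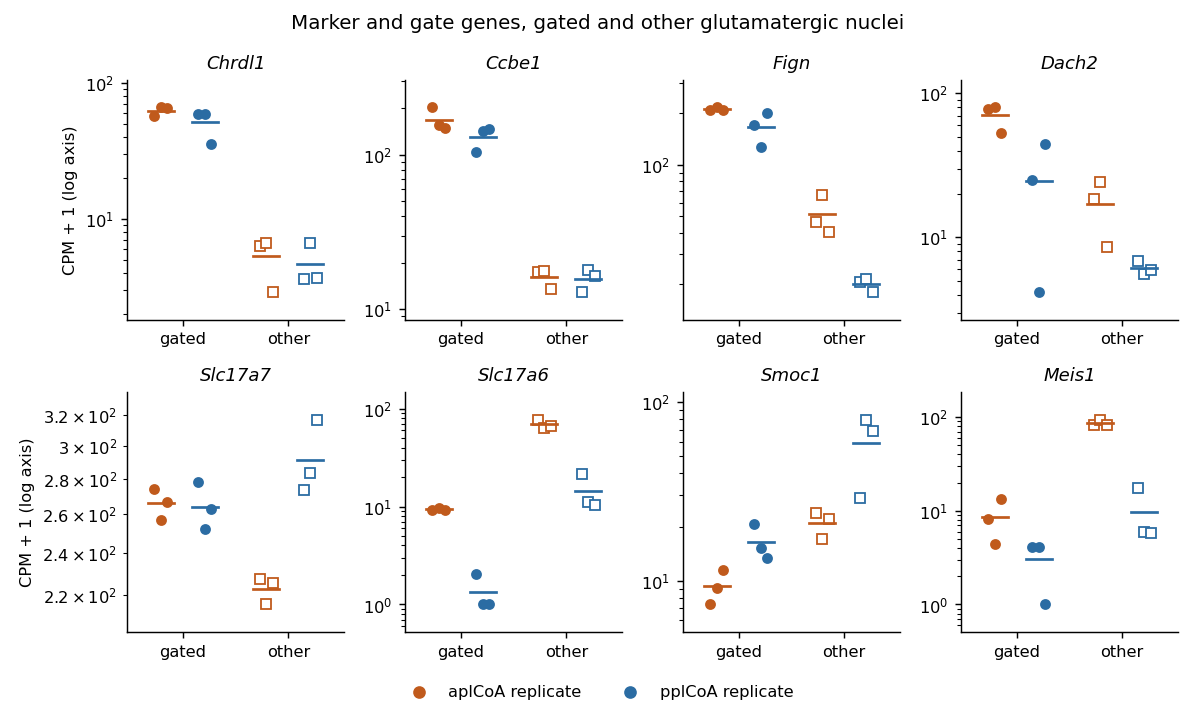
Level of the marker genes and of genes of the gate in gated (filled circles) and other glutamatergic nuclei (open squares); each point is 1 replicate, orange for aplCoA and blue for pplCoA, bars are means of 3 replicates, and the y axis is CPM + 1 on a log axis. Chrdl1, Ccbe1 and Fign separate the classes, as the rule sets, while Dach2 of pplCoA replicate 2 (3.16 CPM) lies below the other nuclei.

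The edge of the gate was not sharp. In aplCoA the 136 nuclei just inside, with a sum of 5 UMIs, held 72.2 CPM of Dach2, and the 172 nuclei just outside, with a sum of 4 and otherwise passing, held 65.8 CPM. In pplCoA the 29 nuclei just inside held 9.22 CPM and the 52 just outside 18.0 CPM. The limit on Smoc1 and Meis1 kept out 21 nuclei, and the demand for 2 detected genes kept out 386. The same 3-gene condition was met by 24 of 5135 GABAergic nuclei (0.467%, median 8468 UMIs), 42 of 12422 astrocytes (0.338%, median 3476 UMIs), 2 of 1909 oligodendrocytes (0.105%, median 3194 UMIs) and 1 of 3763 microglia and macrophages (0.0266%, median 3201 UMIs). Glutamatergic nuclei passed at 4.54% with a median of 13593 UMIs. Glia were not free of the genes, since Fign stood at 324 CPM in oligodendrocytes and 75.2 CPM in astrocytes, and Chrdl1 at 11.5 CPM in astrocytes.

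Markers of other cell types were low in gated nuclei but none was at 0 throughout. The 10 GABAergic markers summed to 15.6 to 43.5 CPM over the 6 replicates of gated nuclei and to 25.1 to 66.9 CPM in the other nuclei. The 10 oligodendrocyte markers summed to 112 to 136 CPM in gated and 111 to 163 CPM in other nuclei, with the defining Mog at 1.86 CPM and Opalin at 0.64 CPM in gated nuclei. The 10 astrocyte markers summed to 356 to 500 CPM against 362 to 512 CPM, mostly from Slc4a4, a bicarbonate transporter (273 CPM in gated nuclei), with the defining Aqp4 at 2.19 CPM. Microglia and macrophage markers summed to 102 to 154 CPM against 112 to 186 CPM, and vascular and meningeal markers to 3.11 to 14.5 CPM against 14.7 to 24.8 CPM. In each of these sums the range of gated nuclei overlapped that of the other nuclei or lay below it.

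Gated nuclei took a larger share of the glutamatergic nuclei in each aplCoA replicate than in any pplCoA replicate. They made up 7.06% (95% interval 6.38 to 7.79) of 5224 glutamatergic nuclei in aplCoA replicate 1, 15.0% (13.01 to 17.1) of 1216 in replicate 2 and 3.25% (2.62 to 3.98) of 2766 in replicate 3. In pplCoA they made up 1.48% (1.09 to 1.97) of 3166, 1.59% (1.09 to 2.24) of 2010 and 0.965% (0.573 to 1.52) of 1866. The lowest aplCoA share exceeded the highest pplCoA share, and within aplCoA the replicates spread beyond their counting intervals. The means were 8.43 ± 5.97% and 1.35 ± 0.336% (SD, n = 3 each), a difference of 7.08 percentage points and a ratio of 6.26, with a two-sided exact permutation p of 0.1, the smallest that 3 against 3 allows. Without aplCoA replicate 2 the ratio was 3.83, and with at least 8 UMIs of the 3 genes it was 11.7. After thinning each nucleus to 5000 UMIs, which left out 324 of 9206 aplCoA and 110 of 7042 pplCoA nuclei, the shares were 0.725 ± 0.446% and 0.0565 ± 0.0250%. The libraries of aplCoA replicate 1 gave 7.11% and 6.95%. Shares of captured nuclei cannot be told apart from differences in dissection between pools. For their own Fign-marked glutamatergic subtype, the authors propose a likely origin in the cortex-amygdala transition area beside aplCoA. Whether the gated nuclei come from that area was not tested.

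Gated nuclei lay near each other in transcriptome space when the genes of the gate were left out. Among the 15 nearest glutamatergic nuclei taken from other replicates only, 44.6, 48.1 and 40.7% were gated for gated nuclei of aplCoA and 25.0, 17.7 and 27.8% for those of pplCoA. Gated nuclei made up 3.35 to 5.28% of the nuclei searched, and other nuclei had 0.992 to 9.77% gated neighbours. Of the pplCoA gated nuclei 21.3, 25.0 and 5.56% by replicate had no gated neighbour, against 3.30 to 8.89% in aplCoA. In pplCoA replicate 3, with 18 gated nuclei, this share was 16.7% with 15 or with 50 principal components and 0% among 50 neighbours.

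Unsupervised clustering without the genes of the gate placed 577 of the 738 gated nuclei (78.2%) in 1 of 22 glutamatergic clusters, called the leading cluster. It held 1721 nuclei, 1627 of aplCoA and 94 of pplCoA, and 33.5% of its nuclei were gated. The domains differed in this placement. The leading cluster held 85.2% of aplCoA gated nuclei but 32.0% of those of pplCoA, which is 31 nuclei (19, 5 and 7 by replicate), and 24.7% and 21.6% of pplCoA gated nuclei lay in clusters 8 and 3. Gated nuclei of the leading cluster made up 7.34 ± 5.59% of glutamatergic nuclei in aplCoA and 0.408 ± 0.178% in pplCoA. Gated nuclei elsewhere made up 1.09 ± 0.397% and 0.939 ± 0.380% (SD, n = 3 each). These shares are a description without a test. The cluster was chosen for holding most gated nuclei, which were mainly of aplCoA, so the choice favoured a difference inside it. Nuclei of the cluster that did not pass the gate differed as well, at 13.3 ± 7.52% and 0.837 ± 0.366%.

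**Figure D2:**
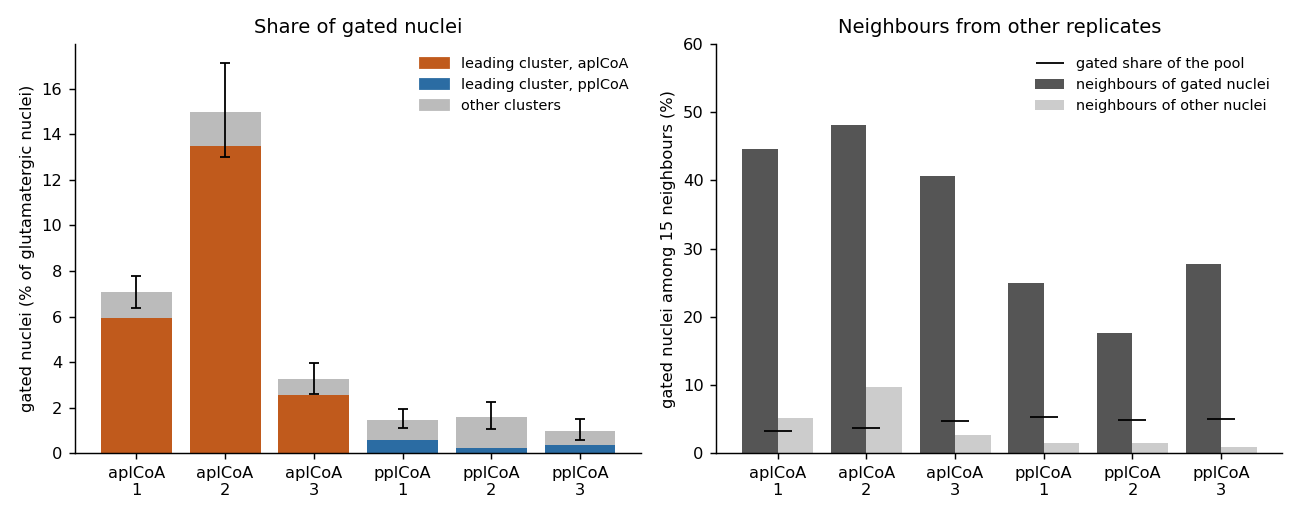
Left, gated nuclei as a percentage of glutamatergic nuclei in each replicate, coloured for those in the leading cluster and grey for those in other clusters, with exact 95% binomial intervals of the total. Right, percentage of gated nuclei among the 15 nearest neighbours of gated and of other nuclei, with the gated share of the searched nuclei as a dash; gated nuclei have 17.7 to 48.1% gated neighbours.

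In the leading cluster Dach2 was also carried by nuclei that did not pass the gate. It stood at 42.0, 51.8 and 34.6 CPM in these nuclei of aplCoA and at 21.0, 14.8 and 20.3 CPM in pplCoA. In gated nuclei outside the cluster it stood at 87.1, 121 and 46.4 CPM in aplCoA and at 17.6, 3.88 and 0 CPM in pplCoA. The former, which are part of the other nuclei, lay above the other nuclei of the same replicate in 6 of 6 replicates. The clustering did not leave out Dach2, which could favour this. Gated nuclei outside the cluster lay below the other nuclei in pplCoA replicates 2 and 3. In gated nuclei of the cluster Dach2 stood at 75.3, 74.5 and 54.2 CPM in aplCoA and at 35.5, 0 and 126 CPM in pplCoA, the last from 7 nuclei.

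Gated and other nuclei were then compared gene by gene, as log2 ratios of CPM + 1 within each replicate. This comparison is a description without a test, because the gate chose the nuclei on the same UMIs. Of 10225 genes detected in at least 10% of gated nuclei, 4 (0.0391%) were at least 2-fold higher in 6 of 6 replicates and 33 (0.323%) at least 2-fold lower. The 4 higher genes were Gm10754 (3.63-fold by the median ratio), Slco2a1, a prostaglandin transporter (3.26-fold), Tg, the thyroid hormone precursor thyroglobulin (3.11-fold), and Gm20646 (2.62-fold). Lower genes thus outnumbered higher ones, while the median log2 ratio over all genes was -0.08.

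Gm10754, a predicted gene, was the most widespread of the higher genes and was detected in 66.5% of gated and 21.0% of other nuclei. It stood at 122, 150 and 116 CPM in aplCoA and at 114, 238 and 234 CPM in pplCoA, against 29.7 to 64.8 CPM in the other nuclei. The classes did not overlap. Slco2a1 stood at 22.2, 31.2 and 20.9 CPM in aplCoA and at 21.8, 12.6 and 15.6 CPM in pplCoA, against 4.34 to 8.80 CPM. Among the 15 highest genes were further Sh3rf2, a ubiquitin ligase with SH3 domains (3.22-fold), Lrmp, a membrane protein of the endoplasmic reticulum (2.99-fold), Sla, a Src-like adaptor (2.97-fold), and Gsg1l, an auxiliary subunit of AMPA receptors (2.45-fold). The rest were transcripts without a name, 4930525C09Rik, 1700007F19Rik, Gm42864, Gm49171, 4921539H07Rik, Gm49164 and Gm48530, from 2.60- to 3.34-fold. Tg and Sla were sparse, found in 12.1% and 10.4% of gated nuclei.

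Among genes past this minimum, the long noncoding RNA Rmst had the lowest median ratio. It stood at 22.8, 24.3 and 30.8 CPM in gated nuclei of aplCoA and at 24.9, 4.74 and 37.4 CPM in those of pplCoA, against 291, 363 and 433 CPM and 263, 118 and 134 CPM in the other nuclei. It was detected in 11.5% of gated and 53.9% of other nuclei, a median ratio of 0.0773-fold. Spock3, a secreted proteoglycan (0.181-fold), Chst9, a carbohydrate sulfotransferase (0.186-fold), A330015K06Rik (0.193-fold), the zinc finger gene Zfp804b (0.221-fold) and Grm8, a presynaptic glutamate receptor (0.226-fold), were also lower in every replicate by at least 2-fold. Sdk1, a synaptic adhesion molecule (0.170-fold), Hs3st4, a heparan sulfate sulfotransferase (0.198-fold), Htr4, a serotonin receptor (0.226-fold), and 4930555F03Rik (0.145-fold) were lower in every replicate, though under 2-fold in at least 1 of them. The minimum, set in gated nuclei, leaves out genes nearly absent there: Reln, the secreted glycoprotein reelin, stood at 4.79 against 143 CPM on average (median log2 ratio -4.72), a gene named after its values were seen.

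**Figure D3:**
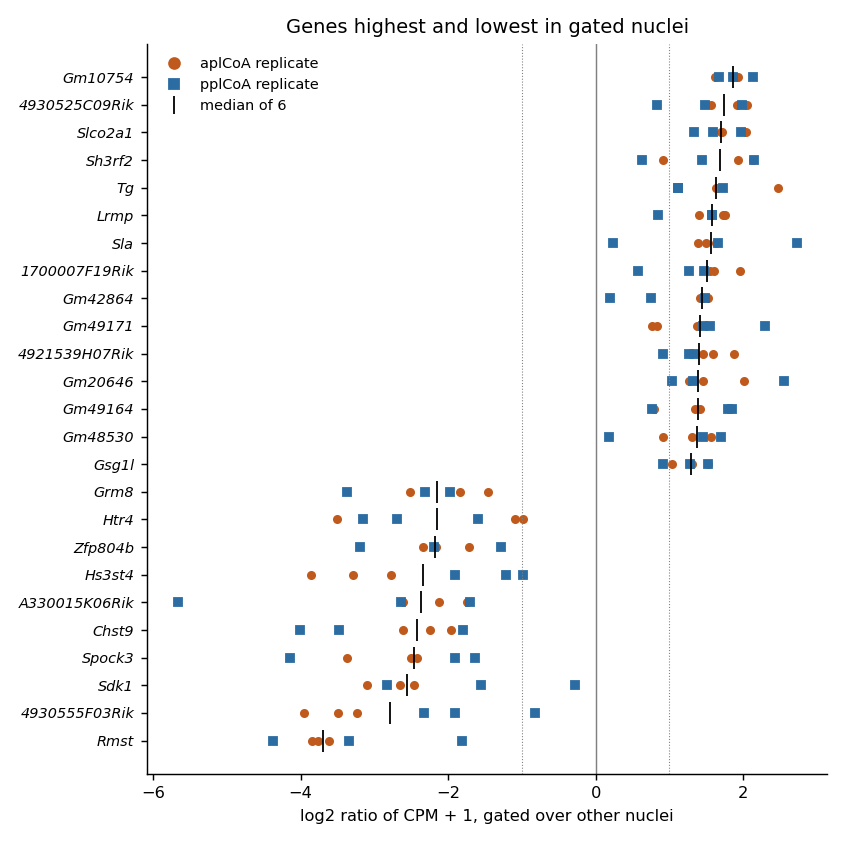
Log2 ratio of CPM + 1 between gated and other glutamatergic nuclei for the 15 highest and 10 lowest genes; circles are aplCoA and squares pplCoA replicates, ticks are medians of 6, and dotted lines mark 2-fold. Rmst lies lowest, with a median ratio of 0.0773-fold, and Gm10754 highest, at 3.63-fold.

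The same genes were read in a pair of other glutamatergic types, without a test. Nuclei picked by Smoc1, Cyp19a1 and Trhr (1183 nuclei) and by Meis1, Ebf1 and Pbx3 (1309 nuclei), with few UMIs of the 3 genes, served as comparisons. Rmst stood at 81.9 CPM in the former and 473 CPM in the latter over all replicates, with a lowest replicate of 25.1 and 75.8 CPM, so that the Smoc1 type overlapped the gated replicates. Chst9 stood at 377 and 34.1 CPM, and Hs3st4 at 140 and 2142 CPM, each high in 1 of the 2 types. Gm10754 stood at 11.6 and 48.7 CPM, and Gsg1l at 73.8 and 76.3 CPM, under the 134 to 261 CPM of the gated replicates. Camk2a, the kinase typical of excitatory neurons, stood at 848 to 1059 CPM in gated nuclei, 808 CPM in the Smoc1 type and 344 CPM in the Meis1 type.

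Transcription factors showed a mixed profile, and the following genes differed the same way in 6 of 6 replicates unless stated. Meis2, a TALE homeobox factor, was 1.80-fold higher in gated nuclei, at 272 to 523 CPM against 108 to 311 CPM. Zfhx4, a large zinc finger homeobox protein, was 2.08-fold higher, at 67.0, 76.0 and 73.3 CPM in aplCoA and 87.1, 74.2 and 99.7 CPM in pplCoA against 29.9 to 39.2 CPM. It was low in the Smoc1 type (4.98 CPM) but not in the Meis1 type (84.2 CPM). Tbr1, a factor of cortical glutamatergic neurons, was 1.46-fold higher. On the lower side stood the teashirt factors Tshz2 (0.270-fold) and Tshz1 (0.353-fold), the LIM cofactor Ldb2 (0.344-fold), Lmo4 (0.494-fold), Nfix (0.498-fold) and Dach1 (0.501-fold). Of 22 cortical projection neuron factors past the detection minimum, 6 were higher and 8 lower in every replicate, and of 16 amygdala and forebrain patterning factors 4 were higher and 4 lower, against 567 higher and 1509 lower of all 10225 genes. Dach1 stood at 66.4 to 224 CPM against 163 to 374 CPM, while its paralogue Dach2 was higher in 5 of 6 replicates.

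The pathways of the naming genes followed without a common direction. Among 21 BMP ligands, antagonists and receptors past the minimum, 1 was higher and 5 were lower in every replicate, beside 567 higher and 1509 lower of all 10225 genes. Bmpr1b, a type I BMP receptor, was 1.91-fold higher (log2 ratio of 0.07 in the closest replicate), at 69.3, 97.9 and 107 CPM in aplCoA and 34.2, 26.8 and 103 CPM in pplCoA. Fstl1, a secreted follistatin-like protein, was lower at 0.403-fold and Id2, a target of BMP signalling, at 0.590-fold. Vegfc, the growth factor that CCBE1 helps mature, was 1.80-fold higher, at 33.6, 34.1 and 29.1 CPM in aplCoA and 12.4, 14.2 and 28.0 CPM in pplCoA against 6.06 to 19.9 CPM in the other nuclei. Nrp1, a co-receptor of VEGF and semaphorins, was 0.500-fold. Of 5 microtubule severing enzymes past the minimum none was higher in every replicate, and Katnal1, a katanin subunit, was lower in every replicate by a small margin (0.927-fold).

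Receptors and channels are counted beside the same 567 higher and 1509 lower of all 10225 genes. Of 11 monoamine and acetylcholine receptors past the minimum, 5 were higher and 1 was lower in every replicate. Htr2a, a Gq-coupled serotonin receptor, was 1.79-fold higher, at 32.5, 27.1 and 26.8 CPM in aplCoA and 43.6, 36.3 and 18.7 CPM in pplCoA. Htr2c was 1.55-fold and Htr7 1.33-fold higher. Gsg1l, Nptxr, a receptor for neuronal pentraxins (1.66-fold), and Cacng3, a TARP subunit (1.38-fold), were higher among 15 AMPA receptor genes, while the subunit Gria4 (592 against 765 CPM on average) and the scaffold Grip1 (166 against 241 CPM) were lower. Among 13 NMDA, kainate and delta receptor genes, Grin2a was higher (1.26-fold) while Grik1 (0.269-fold) and Grik4 (0.365-fold) were lower. Of 28 potassium channel genes, 7 were higher and 5 lower, with the voltage-gated Kcnh5 at 1.87-fold, the auxiliary subunit Kcnab1 at 0.279-fold and the calcium-activated Kcnn3 at 0.465-fold. Ryr2, the calcium release channel, was 1.38-fold higher.

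Of 34 axon guidance ligands and receptors, 15 were lower and 6 higher in every replicate, and of 20 cadherins 4 were lower and 3 higher, beside 1509 lower and 567 higher of all 10225 genes. Epha3, an ephrin receptor, was 2.37-fold higher, at 175 to 408 CPM against 77.9 to 174 CPM. Efna5, an ephrin ligand (0.252-fold), Ntng1, a netrin-G (0.293-fold), Sema6a (0.303-fold) and Sema3a (0.310-fold) were lower. Of 32 synaptic adhesion molecules, 10 were lower and 3 higher, with Tenm3 at 0.250-fold, Tenm1 at 0.535-fold and Flrt2 at 1.81-fold. Cdh11 (1.76-fold) and Pcdh10 (1.54-fold) were higher and Cdh13 (0.488-fold) lower among cadherins. Of 14 extracellular matrix and secreted genes past the minimum, 2 were higher and 3 lower in every replicate. The matrix collagen Col12a1 was 2.10-fold and Thsd7a, a thrombospondin-domain protein, 1.81-fold higher.

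The domains were next compared within the gated nuclei, by edgeR's quasi-likelihood test on UMI sums of 3 aplCoA and 3 pplCoA replicates with Benjamini-Hochberg adjustment. Of 10748 genes tested, 122 (1.14%) were higher and 331 (3.08%) lower in aplCoA at an adjusted p under 0.05, or 453 in all, with 1683 at an unadjusted p under 0.05. With no detection minimum the split was 247 higher and 302 lower of 22602 genes. Among the 9687 genes that reached 10% detection in both domains it was 114 higher and 293 lower. The other nuclei of the same pools gave 2013 calls between domains. The pplCoA sums were small, 963989, 633425 and 320903 UMIs, so that 1 UMI was worth 1.04, 1.58 and 3.12 CPM there. The number of calls was 77 with at least 8 UMIs of the 3 genes, 250 without aplCoA replicate 1, 234 without aplCoA replicate 2 and 202 without pplCoA replicate 2. The domains also differed in the clusters their gated nuclei came from, mainly the leading cluster in aplCoA and clusters 8, 3 and the leading cluster in pplCoA, and a domain change cannot be told apart from this mixture over all gated nuclei. Within the leading cluster 16 genes were called, 12 of them among the 453, and 779 had an unadjusted p under 0.05, with 31 pplCoA nuclei.

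Among transcription factors, Dach1 was lower in aplCoA, at 88.5, 66.4 and 88.4 CPM against 212, 159 and 224 CPM in pplCoA, without overlap (log2 fold change -1.36 ± 0.230 SE, edgeR adjusted p = 3.44e-06). Tshz2 was higher, at 77.5, 60.1 and 80.3 CPM against 20.7, 15.8 and 12.5 CPM (1.95 ± 0.349, edgeR adjusted p = 8.96e-06). Dach2 was higher by 1.73 ± 0.407 (edgeR adjusted p = 0.00175). Within the leading cluster these log2 fold changes were -0.07, 0.38 and 0.60, with adjusted p of 0.978, 0.921 and 0.732. Meis2 was higher by 0.47 (edgeR adjusted p = 0.0247) over all gated nuclei and -0.20 in the leading cluster. Zbtb20, a zinc finger repressor, was lower by -0.85 in log2 terms, at 372, 457 and 501 CPM against 741, 726 and 788 CPM.

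Receptors were called in either direction. Esr1, the oestrogen receptor alpha, stood at 16.8, 12.7 and 32.6 CPM in aplCoA and 90.2, 63.1 and 77.9 CPM in pplCoA, without overlap (-2.15 ± 0.378, edgeR adjusted p = 6.40e-06). Grin3a, an NMDA receptor subunit, stood at 59.8, 58.9 and 85.5 CPM and 171, 232 and 143 CPM (-1.58 ± 0.265, edgeR adjusted p = 3.44e-06). In the leading cluster Esr1 had the opposite sign (0.85) and Grin3a was at -0.66, neither called. Gria1, an AMPA receptor subunit, was lower at -0.71, Oprm1, the mu opioid receptor, at -0.89 and Nr3c2, the mineralocorticoid receptor, at -0.80. Htr2c was higher at 0.75 and Grm8 at 1.16. By list, 4 of 15 AMPA receptor genes tested were lower and 1 higher, 3 of 18 neuropeptide and hormone receptors were lower and none higher, and 4 of 28 potassium channels were lower and none higher, beside 3.08% lower and 1.14% higher of all genes tested.

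Among adhesion and guidance genes, Cdh13, a cadherin anchored by a lipid, stood at 195, 149 and 279 CPM in aplCoA and 438, 725 and 682 CPM in pplCoA (-1.66 ± 0.283, edgeR adjusted p = 3.61e-06). Pcdh15, a protocadherin, stood at 186, 160 and 170 CPM and 353, 395 and 290 CPM (-1.11 ± 0.188, edgeR adjusted p = 3.61e-06). In the other nuclei Cdh13 was lower as well (-1.27, edgeR adjusted p = 0.00995), and its change did not pass the test of a difference between gated and other nuclei (adjusted p = 0.0759). Neither gene overlapped between domains in gated nuclei, and they were called in the leading cluster too, at -0.93 (adjusted p = 0.0320) and -1.02 (adjusted p = 0.0320). Cdh10 (-1.17), the netrin receptor Dcc (-0.90) and the growth factor Nrg1 (-1.06) were lower, and Epha3 was higher at 0.82, with 372, 408 and 323 CPM against 188, 175 and 246 CPM. Of 20 cadherins tested 5 were lower and 2 higher, and of 35 guidance genes 5 were lower and 3 higher, against the same 3.08% and 1.14% of all genes.

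Among genes of the naming pathways, Vegfc was higher in aplCoA by 0.97 ± 0.311 (edgeR adjusted p = 0.0447), with pplCoA replicate 3 (28.0 CPM) close to the lowest aplCoA replicate (29.1 CPM). Fstl5, a follistatin-like protein, was higher at 1.34, with 290, 308 and 287 CPM against 113, 83.7 and 146 CPM (edgeR adjusted p = 3.44e-06), and Tll1, a protease that cleaves chordin, was lower at -1.73 (edgeR adjusted p = 0.00117). Over all lists 397 genes were tested and 65 called, 20 higher and 45 lower. The lists were chosen with results of these data known, and 65 of 397 stands beside 453 of 10748 for all genes.

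**Figure D4:**
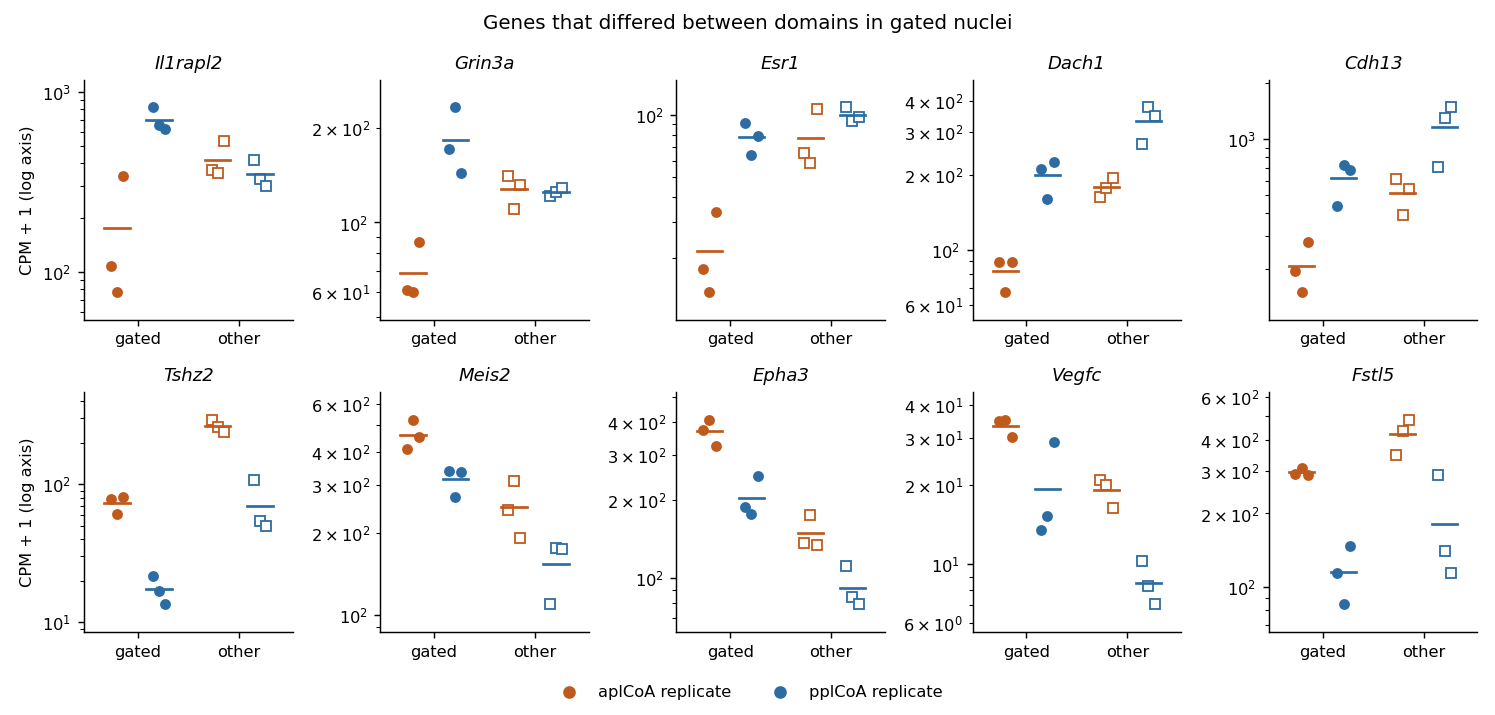
Level of 10 genes called between domains in gated nuclei (filled circles) and in other glutamatergic nuclei (open squares), each point 1 replicate, orange for aplCoA and blue for pplCoA, with means of 3 as bars and CPM + 1 on a log axis. Il1rapl2, Grin3a and Esr1 separate the domains in gated nuclei more widely than in the other nuclei.

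The largest fitted changes were mostly of sparse genes. All of the 10 most lowered reached 10% detection in pplCoA only, and 5 of the 10 most raised in aplCoA only, so the domain where they were high brought them into the test and their values are given without p. Mybpc1, a myosin-binding protein, stood at 0.777, 0.578 and 1.16 CPM in aplCoA and 14.5, 14.2 and 40.5 CPM in pplCoA (log2 fold change -4.62), from 45 UMIs in 2.71% of gated nuclei. Next came Gm10165 (-3.56), the zinc finger factor Zic2 (-3.49, from 15 UMIs), Mirt1 (-3.35), Gm45721 (-2.78), Gm17225 (-2.75), the collagen Col6a1 (-2.74), Gm16151 (-2.74), Pth2r, a parathyroid hormone receptor (-2.72), and A730035I17Rik (-2.66). On the higher side were Ndufs6, a subunit of respiratory complex I (2.68), the matrix protein Frem1 (2.47), Pantr1 (2.10), Gipc2 (1.97), Tshz2 (1.95), Qrfpr, a neuropeptide receptor (1.94), the prostaglandin synthase Ptgds (1.91), Nell1 (1.83), Snrpc, a splicing factor (1.83), and Chchd2, a mitochondrial protein (1.75). Ptgds rested on aplCoA replicate 3, at 288 CPM against 77.7 and 91.3 CPM in replicates 1 and 2.

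Genes of other cell types moved with the domains as well. Pdgfra, the defining receptor of oligodendrocyte precursors, stood at 5.44, 1.73 and 2.33 CPM in aplCoA and 23.9, 9.47 and 6.23 CPM in pplCoA. Its fitted log2 fold change was -2.14, and -0.36 once called doublets were removed, without p, since it reached 10% detection in pplCoA only. The sum of the 10 precursor markers was 486, 414 and 575 CPM in aplCoA and 767, 799 and 735 CPM in pplCoA, nearly all of it Tnr, a matrix protein that the other nuclei held at 671 to 873 CPM. Tnr was lower in aplCoA by -0.70 (edgeR adjusted p = 0.000363) and by -0.64 with doublets removed. Called doublets made up 6.67 ± 1.73% of gated nuclei in aplCoA and 13.5 ± 10.6% in pplCoA (exact permutation test, p = 0.4, n = 3 each). With doublets removed 493 genes were called. Of the other lists of cell type markers 2 GABAergic, 4 astrocyte, 4 oligodendrocyte and 4 microglia and macrophage genes were tested, and no vascular or meningeal gene. None was called, beside 453 of all 10748 genes, and so few tested genes do not show a lack of change. The part of doublets in the domain calls was not tested beyond their removal.

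Within the leading cluster 14 genes were lower in aplCoA and 2 higher. Lower in aplCoA were Brinp3, a neural protein induced by BMP and retinoic acid (-1.06, edgeR adjusted p = 4.41e-06), Pcdh15, Cdh13, Thsd7a (-0.68), Cadps2, a factor of vesicle priming (-0.83), Nwd2 (-0.64), Galntl6 (-1.39), Sorbs2os (-0.71), Gm15398, Gm15261, A630089N07Rik, Gm42609, 6530403H02Rik and D030068K23Rik. Higher were Ubb, a polyubiquitin gene (1.43), and Gm42418 (0.84), a locus that overlaps ribosomal RNA. These 16 genes were named after their values were seen. Over all gated nuclei Cadps2 (0.20) and 6530403H02Rik (0.12) went the opposite way. Neither these nor Nwd2 (-0.14) and D030068K23Rik (-0.24) were called over all gated nuclei. In the other nuclei Ubb (1.31), Gm42418 (1.11), Cdh13 (-1.27), Sorbs2os (-0.79), Thsd7a (-0.55) and Gm42609 (-0.75) were called between domains in the same direction. Pcdh15 (0.83), Gm15398 (0.39) and D030068K23Rik (0.33) were called there in the opposite direction, and the rest were not called. Gated nuclei of the cluster are a subset of all gated nuclei, so the fits share nuclei. Of the 65 called list genes 49 had the same sign in the cluster. The rest had the opposite sign, Epha3, Meis2, Esr1 and Tll1 among them, as had the sparse Mybpc1, Zic2, Mirt1, Gm10165 and Pth2r. None of these named genes was called there.

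**Figure D5:**
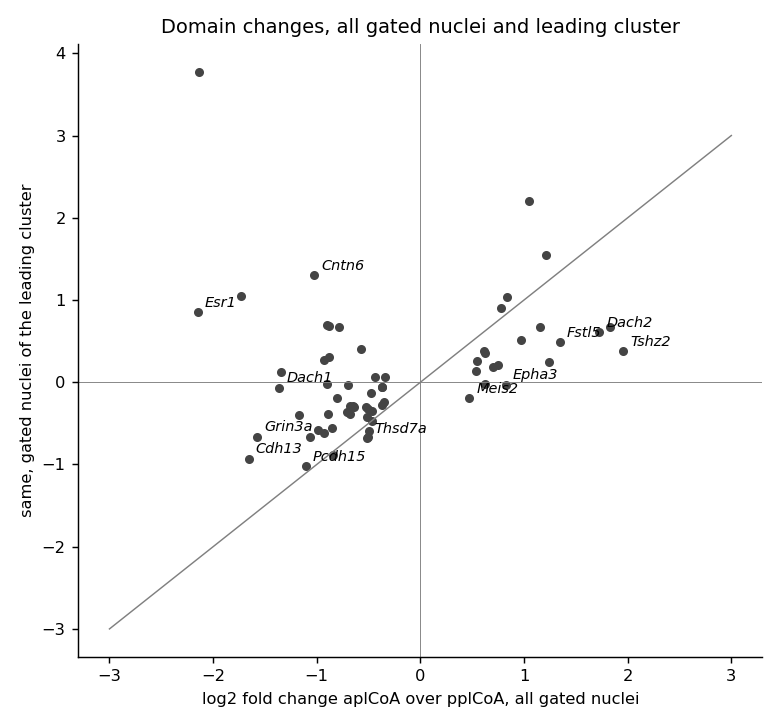
Log2 fold change of aplCoA over pplCoA for the 65 called list genes, over all gated nuclei (x axis) and in gated nuclei of the leading cluster (y axis), with the line of equality. Pcdh15 lies near the line, at -1.11 and -1.02, while Esr1 changes sign, from -2.15 to 0.85.

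Whether the domain change of gated nuclei differed from that of the other nuclei was tested as an interaction in edgeR, with replicate as a block. Of 10922 genes, 189 (1.73%) differed at an adjusted p under 0.05, 56 with a more positive and 133 with a more negative change in gated nuclei. The other nuclei were also a different mixture in each domain. They held 1208 nuclei of the Meis1 type in aplCoA and 101 in pplCoA, and 281 and 902 of the Smoc1 type. They also held the nuclei of the leading cluster that did not pass the gate, which carried Dach2 as well. These were 650, 258 and 173 nuclei in the aplCoA replicates and 36, 19 and 8 in those of pplCoA. The test cannot tell a difference of domain changes apart from these mixtures. Without pplCoA replicate 2 the count was 65, without aplCoA replicate 2 it was 106 and without pplCoA replicate 3 it was 122. Within the leading cluster it was 33, and without the block 32.

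Pcdh15 went opposite ways in the classes. In gated nuclei it was lower in aplCoA (-1.11), and in the other nuclei, at 522, 553 and 478 CPM in aplCoA and 329, 268 and 231 CPM in pplCoA, it was higher (0.83, edgeR adjusted p = 0.00401). Among the other nuclei Pcdh15 stood at 1618 CPM in the Meis1 type, found mostly in aplCoA, and at 204 CPM in the Smoc1 type. Its change in the other nuclei cannot be told apart from their mixture of types. The difference of the 2 changes was -1.93 ± 0.274 (edgeR adjusted p = 2.04e-08), and -1.78 in the leading cluster (adjusted p = 0.000421). Il1rapl2, a synaptic protein of the interleukin 1 receptor family, stood at 107, 76.2 and 337 CPM in gated nuclei of aplCoA and 816, 649 and 617 CPM in those of pplCoA, against 365, 353 and 531 CPM and 415, 327 and 298 CPM in the other nuclei. Its difference was -2.54 ± 0.404 (edgeR adjusted p = 9.20e-07) but -0.35 (adjusted p = 0.831) in the leading cluster. Grin3a (-1.57), Esr1 (-1.60), Cdh10 (-1.07) and the potassium channel Kcnk2 (-1.48) differed in the same direction, each with adjusted p of 0.000137 or less. In the leading cluster these differences were -0.63, 1.51, -0.26 and -0.18, in the same order, and none was called. Htr2a, not called between domains in gated nuclei (-0.39, edgeR adjusted p = 0.445) and higher in aplCoA in the other nuclei (0.63), differed by -1.05 (edgeR adjusted p = 0.0406). Dach2 and Tshz2 did not pass this interaction test in edgeR, with adjusted p of 0.958 and 0.834. Their domain changes of 1.73 and 1.95 in gated nuclei stood beside 1.54 and 1.85 in the other nuclei. Dach1 (difference of -0.44, edgeR adjusted p = 0.326) and Fstl5 (0.29, edgeR adjusted p = 0.737) did not pass it either. A domain change called in gated nuclei is thus not by itself particular to them.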

How the data were processed

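Nuclei of aplCoA and pplCoA were sequenced on the 10x Chromium 3' platform. The authors aligned reads to mm10 with Cell Ranger 5.0.0, per the submitters' processing notes, and deposited unnormalized UMI counts per gene and barcode for 7 libraries and 32285 features (78 of them share a symbol with another, stayed separate and were not named). Gated nuclei were found by their UMIs. Members and gene lists were chosen with earlier results of these data known. Scrublet scores marked 1% of nuclei per 1000 as doublets, which were kept. Library totals and gated UMIs are given with the results.

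UMIs were summed per replicate, aplCoA replicate 1 over both libraries. Sums were tested with edgeR 4.0.16 (quasi-likelihood, TMM factors, genes of the gate left out, genes detected in at least 10% of nuclei of a domain, Benjamini-Hochberg adjustment, calls at 0.05), with the replicate as a block in the interaction, where both classes come from the same pool. The SE is the size of the log2 fold change over the normal quantile of its p. Gated and other nuclei were described by log2 ratios of CPM with a pseudocount of 1. Shares were compared by exact permutation tests. Neighbours and Leiden clusters (resolution 1) came from 30 components of 3000 variable genes without the gate genes (scanpy 1.11.5, Python 3.11.15). On simulated counts 94.5% of 200 genes changed by a log2 fold change of 2 were recovered for the domain test (10748 genes). For the interaction (10922 genes) 93% were recovered. False calls were 12 (5.97% of calls) and 9 (4.62%). The simulation gave all genes the same dispersion and held no pool effect. The called domain genes had a median absolute log2 fold change of 0.861, and recovery of changes of that size was not tested.

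Genes were named by rule: markers and gate genes, the 15 highest and 10 lowest median ratios that held in 6 of 6 replicates, up to 4 members per list, the 10 largest called domain changes each way with all called list members, and the 10 largest called interactions. Some named genes are not reported here, though they remain in the counts. Alternatives were DESeq2 1.42.0, a likelihood ratio test, RLE factors, other gate, gene and depth limits, single libraries and left-out replicates. The leading cluster, the detection minimum on the mean of both domains, aplCoA alone and pplCoA alone were chosen after seeing the data.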

Additional observations from a re-analysis of the deposited data

Results flagged for a closer look

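The domain change differed between gated and other glutamatergic nuclei for 189 genes by edgeR's quasi-likelihood interaction test with Benjamini-Hochberg adjustment, and the 10 with the largest difference are given here as the log2 change in gated minus that in other nuclei. Il1rapl2 differed by -2.54 (edgeR adjusted p = 9.20e-07) and by -2.71 with doublets removed (adjusted p = 3.31e-08). Sox6, a transcription factor of interneurons and oligodendrocyte precursors, differed by -2.44, with 16.5, 7.22 and 14.5 CPM in gated nuclei of aplCoA and 58.1, 31.6 and 34.3 CPM in those of pplCoA. Sox2ot, a noncoding RNA that overlaps Sox2, differed by -2.37 (edgeR adjusted p = 9.20e-07), with 24.5, 12.1 and 19.8 CPM and 117, 66.3 and 77.9 CPM. With called doublets removed, which made up 25.5% of gated nuclei of pplCoA replicate 1, Sox6 stood at -1.67 and Sox2ot at -1.16 (adjusted p = 0.136). Of the 10 genes 8 were not called with doublets removed, all but Il1rapl2 and Mybpc1, and none was called in the leading cluster, where 5 had the opposite sign.

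Nxph1, a secreted ligand of neurexins, differed by -2.98 (edgeR adjusted p = 0.000445), with 30.1, 13.3 and 8.14 CPM in gated nuclei of aplCoA and 64.3, 41.0 and 21.8 CPM in those of pplCoA, and by -0.74 (adjusted p = 0.819) with doublets removed. Mybpc1 differed by -3.39. The remaining genes rested on 101 UMIs or fewer in gated nuclei. Ebf1, a factor that marks the Meis1 type, differed by -4.90 on 22 UMIs, and Cntnap3, a neurexin relative, by -3.24 on 27 UMIs. Zic2 differed by -3.26 on 15 UMIs, Gm13584 by 2.86 on 87 UMIs and Tcte1 by 2.71 on 101 UMIs. Sox6, Mybpc1, Ebf1, Cntnap3, Zic2, Gm13584 and Tcte1 reached 10% detection only in groups where they were high, which brought them into the test, so no p is given for them. The gate also limits Meis1, which marks the same type as Ebf1, and among the other nuclei that type lay mostly in aplCoA.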

How the results depend on the processing

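The difference in share kept its direction under every alternative run, from 0.669 percentage points after thinning to 9.67 without aplCoA replicate 3, but 3 against 3 replicates cannot pass 0.05. The 453 domain calls became 77 with at least 8 UMIs, 194 at an adjusted p under 0.01 and 1.5-fold, 16 in the leading cluster, and 202 to 529 with 1 replicate left out. The 189 interaction calls became 33 with at least 8 UMIs, 327 by the likelihood ratio test, 80 at the stricter threshold, 33 in the leading cluster, and 65 to 200 with 1 replicate left out. Against the other nuclei, the 4 higher and 33 lower genes became 32 and 107 at 1.5-fold and 1 and 18 with a pseudocount of 10 CPM. The counts were 29 and 111 in aplCoA alone, 12 and 66 in pplCoA alone and 8 and 57 in the leading cluster. In nuclei of 10000 to 20000 UMIs 8 were higher, and with no detection minimum 85 were lower. Of the 4 higher genes, 2 remained in the leading cluster and 2 in nuclei of 10000 to 20000 UMIs. Of the 33 lower genes, 19 and 21 remained. With 10% detection required on the mean of both domains, chosen after seeing the data, 440 domain genes were called. Of the summary values 26 were labelled moved and 52 unchanged. For the share this meant only the same direction, for counts a value within 1.5 times, and for the neighbours a percentage within its spread. The small UMI sums of pplCoA limit sparse genes.

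In the leading cluster these domain changes reversed: Adcy2 (-0.0190), Cntn4 (0.68), Cntn6 (1.30), Epha3 (-0.0318), Esr1 (0.85), Gm10165 (4.31), Grin2a (0.0593), Htr1f (0.40), Kcnk1 (0.67), Kcnk2 (0.27), Kcnn2 (0.31), Meis2 (-0.20), Mirt1 (1.27), Mybpc1 (3.25), Nxph1 (0.13), Pdgfra (3.77), Pth2r (5.03), Shisa6 (0.70), Tll1 (1.04) and Zic2 (1.27). Interaction values also reversed there for Cntnap3 (6.01), Ebf1 (4.22), Mybpc1 (7.95), Sox6 (0.60) and Zic2 (4.50). With at least 8 UMIs, Nxph1 (0.33) and Sema6a (0.0607) reversed in the domain test and Cntnap3 (5.34) and Ebf1 (3.87) in the interaction, and with doublets removed Nxph1 (1.09) reversed. The cause was not tested.

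Replicates of the 2 domains shared a number but no stated pool or day. Deviations of same-numbered gated sums correlated at 0.03, -0.01 and -0.01, and those of the other nuclei at 0.01, -0.15 and 0.12. No pairing by number was seen, but the small gated sums of pplCoA could hide one. A replicate block gave 427 domain calls, 405 of them among the 453, and the p for the difference in share was 0.25 in the exact permutation test within numbers, the smallest that 3 pairs allow. In the interaction, where gated and other nuclei share a pool, 32 calls were made with no replicate block.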

Other observations

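Neuropeptide and activity-linked genes were read next to the other nuclei. Of 17 neuropeptide genes 5 passed the detection minimum. In every replicate none of them was higher than in the other nuclei and 2 were lower, beside 567 higher and 1509 lower of all 10225 genes. Scg2, a secretogranin of dense-core vesicles, stood at 8.51 CPM on average against 28.7 CPM, and Cck, the peptide cholecystokinin, at 21.6 against 33.2 CPM. Of 11 activity-linked genes past the minimum 3 were lower in every replicate, beside 1509 of all 10225 genes, with a summed level of 732 to 1148 CPM against 1008 to 1450 CPM, and of 11 tested between domains 1 was called, beside 453 of all 10748 genes. This was Inhba, a subunit of activin, at a log2 fold change of -0.68 (edgeR adjusted p = 0.0302).

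Nuclear genes of oxidative phosphorylation had a median log2 domain change of 0.64 in gated nuclei and 0.75 in other nuclei. The mitochondrially encoded genes, which report cytoplasmic RNA carried with nuclei, had medians of 0.70 and 0.92, with sums of 208, 165 and 107 CPM in gated nuclei of aplCoA and 118, 104 and 68.6 CPM in those of pplCoA, and their part in the change was not tested. Of 24 tested, Cox6c, a subunit of cytochrome oxidase, was called (1.05, edgeR adjusted p = 0.0325), a share near that of all genes. Their summed level was 661, 666 and 580 CPM in gated nuclei of aplCoA and 429, 403 and 374 CPM in those of pplCoA, without overlap.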
